A study of Mus musculus with 2 samples.

Results

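Dividing T and other lymphoid cells were chosen by measured UMIs from single-cell RNA sequencing of mouse skin, as barcodes with at least 200 genes, under 10% mitochondrial UMIs and at least 3 UMIs of Mki67 and Top2a together. UMIs, unique molecular identifiers, count the transcripts caught from each cell. A barcode also needed at least 2 UMIs of Cd3d, Cd3e, Cd3g and Il7r together, with under 1% of its UMIs from the class II genes Cd74, H2-Aa, H2-Ab1 and H2-Eb1. The Cd3 genes encode chains of the T cell receptor complex and Il7r encodes the receptor for interleukin-7, so T cells and innate lymphoid cells could both pass. This gave 910 dividing cells of 27589 barcodes past the quality filter, 555 from the isotype control and 355 from the anti-Gr-1 library. The 12529 cells that met the lymphoid conditions with fewer Mki67 and Top2a UMIs, 8192 and 4337, are called the other lymphoid cells.

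Live CD45+ leukocytes had been sorted from collagenase-digested skin of C57BL/6 wild-type mice at postnatal day 15. One group of mice had received anti-Gr-1, an antibody against Ly6 surface proteins of neutrophils and monocytes, on alternate days from day 4 to day 14, and the other an isotype control antibody on the same schedule. Each of both treatments is represented by 1 library, made from a pool of 4 to 7 mice. There are therefore no replicates, no difference between the groups was tested, and all intervals below are 95% intervals that cover counting error only. Intervals of gene levels are over UMIs, so they leave out the spread between cells as well as between mice.

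Cells that divide copy their DNA in S phase, with the replicative helicase, the polymerases and the enzymes that make nucleotides, and then separate the copies in mitosis under Cdk1 and its cyclins. Mki67 encodes a coat protein of mitotic chromosomes and Top2a the topoisomerase that untangles them, and both are made from S phase to mitosis. Mouse skin holds dendritic epidermal T cells (DETC), γδ T cells of the epidermis with a receptor of the Vγ5 and Vδ1 chains, here named Tcrg-V5 and Trdv4. It also holds dermal γδ T cells that make interleukin-17, regulatory T cells, other αβ T cells and innate lymphoid cells, and several of these populations fill the skin by local division after birth.

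The isotype control library held 125253392 UMIs over 21311 barcodes and the anti-Gr-1 library 85142470 over 9110. Dividing cells had a median of 9660 UMIs (isotype control) and 12961 UMIs (anti-Gr-1), against 4781 and 6795 in the other lymphoid cells. The libraries shared 61 barcodes, of which 0 isotype control and 5 anti-Gr-1 cells were among the dividing ones. UMIs of Xist and of Y-linked genes met in 72 isotype control (13.0%) and 23 anti-Gr-1 (6.48%) dividing cells, against 7.25% and 3.37% of the other lymphoid cells. Doublet scoring would remove 76 (13.7%) and 33 (9.30%) of the dividing cells; they were kept, since the selection has no doublet step.

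The label genes Mki67, Top2a and Cd3e are part of the selection, so their presence describes the cells and does not check the label. On GRCm38 Mki67 lies at chr7:135689784-135716361, Top2a at chr11:98992943-99024189 and Cd3e at chr9:44998740-45009627, each on the minus strand. Mki67 was found in 90.1% and 91.0% of the dividing cells and Top2a in 86.3% and 84.8%, with the isotype control value first and the anti-Gr-1 value after it, as in every pair of values below. Cd3e was found in 73.9% and 66.5%, and at least 2 UMIs of the Cd3 genes in 84.0% and 88.7%. The 32 and 25 dividing cells with no Cd3 UMI had passed on Il7r alone. Markers of other leukocytes were present too: the summed level of 10 phagocyte markers, in CPM (UMIs per 1000000 UMIs of the cells summed), was 733 and 366 CPM in the dividing cells and 1048 and 624 CPM in the other lymphoid cells, with no phagocyte marker at 0. For 6 mast cell and basophil markers the sums were 457 and 846 CPM against 1762 and 2336 CPM. The part of these markers in the results was not tested.

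Values near the threshold show how the selection cut through the cells. The lymphoid cells just outside it, with 2 UMIs of Mki67 and Top2a, numbered 303 and 207, and those just inside, with 3 UMIs, 126 and 73. Cdk1 stood at 3.83 and 1.08 CPM just outside, at 13.7 and 8.11 CPM just inside, and at 175 and 200 CPM in cells with 8 or more UMIs. The cells with 8 or more UMIs were 52.4% and 59.4% of the dividing cells. Cells near the threshold thus carried low mitotic levels on either side of it. In barcodes with mast cell markers and no Cd3 or Il7r UMI, 6 of 327 (1.83%) and 5 of 167 (2.99%) had 3 or more Mki67 and Top2a UMIs, at median depths of 2471 and 5374 UMIs.

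Dividing cells belonged to every larger lymphoid lineage of the skin, with γδ T cells and cells marked by Hlf and Bmp2 in the lead. Lineages were called from marker UMIs: Foxp3 for regulatory T cell-like (Treg-like) cells, Trdc and Tcrg-C1 for γδ T cells, Trac for αβ T-like cells, Hlf and Bmp2 for cells with these transcripts and Ncr1 for NK-like cells. The γδ cells were split into DETC-like and type 17-like (γδ17-like) by which of both marker sets had more UMIs. Gzmc was in the DETC set, and Il17a, Il23r, Tcrg-V6, Cd163l1 and Il1r1 were in the type 17 set. DETC-like cells were 109 dividing cells (19.6% of all dividing cells) among the isotype control and 76 (21.4%) among the anti-Gr-1 cells. The γδ17-like cells were 85 (15.3%) and 66 (18.6%). Both γδ groups with the unplaced γδ cells made up 35.0% and 40.3% of the dividing cells, but 52.3% and 57.1% of all lymphoid cells, dividing or not.

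Cells with Hlf, a transcription factor of blood progenitors, and Bmp2, a secreted growth factor, were the largest single group in division with all UMIs. They were 129 cells (23.2%) and 91 cells (25.6%), against 14.5% and 17.9% of all lymphoid cells. The rank changed when cells were thinned to equal depth, as described below. At 2 or more Mki67 and Top2a UMIs, Hlf Bmp2 cells then numbered 97 and 74, against 110 and 71 DETC-like cells. At 1 or more they numbered 241 and 155, against 367 and 201. With all UMIs, Treg-like cells in division numbered 63 (11.4%) and 26 (7.32%), and αβ T-like cells 32 (5.77%) and 44 (12.4%). Only 6 and 7 NK-like cells were dividing, of 41 and 30, too few to describe. Another 28 (5.05%) and 3 (0.845%) dividing cells were set aside for mast cell or phagocyte markers. A further 54 (9.73%) and 28 (7.89%) carried markers of more than 1 lineage, where B cell, mast cell and phagocyte markers counted as lineages too. The remaining 49 (8.83%) and 13 (3.66%) could not be placed. Among those with markers of more than 1 lineage, doublet scoring would remove 55.6% and 60.7%.

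**Figure D1:**
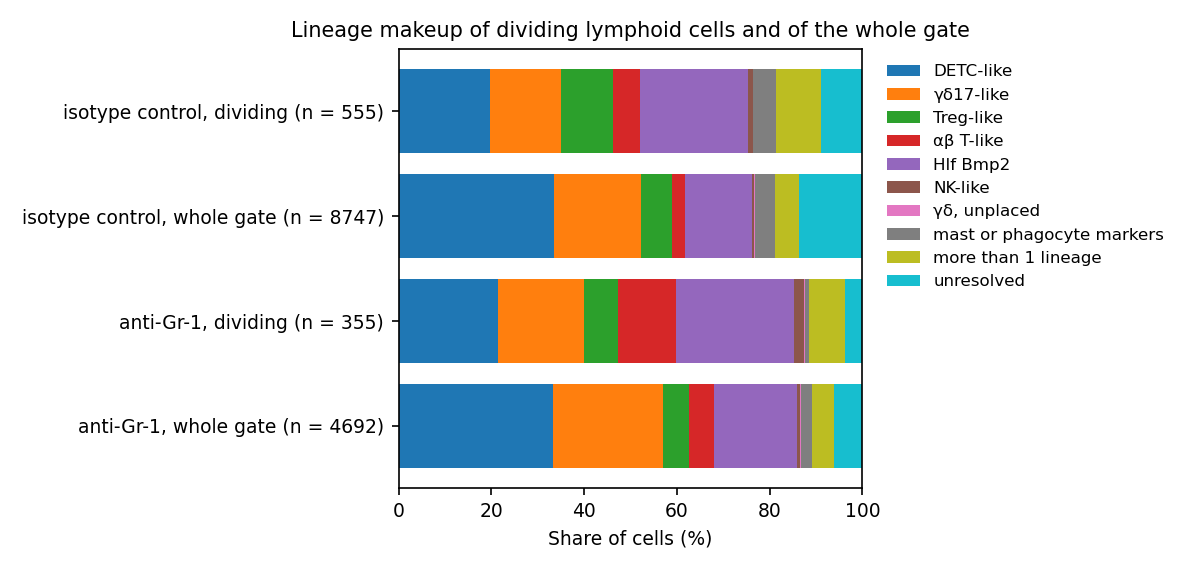
Share of cells (%, horizontal axis) in each lineage, as stacked bars, for the dividing lymphoid cells and for all cells that passed the lymphoid conditions, in each library. DETC-like cells fill 19.6% and 21.4% of the dividing bars but 33.5% and 33.2% of the bars of all lymphoid cells.

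Among the larger named lineages, the share in division was lowest in both γδ groups. In the isotype control library 3.72% (3.07 to 4.47) of DETC-like and 5.20% (4.17 to 6.38) of γδ17-like cells were dividing, against 10.8% (8.38 to 13.6) of Treg-like, 13.2% (9.18 to 18.1) of αβ T-like and 10.1% (8.54 to 11.9) of Hlf Bmp2 cells. The anti-Gr-1 library gave 4.87% (3.86 to 6.06), 5.93% (4.62 to 7.48), 9.85% (6.53 to 14.1), 17.1% (12.7 to 22.2) and 10.9% (8.83 to 13.2) for the same lineages. In the isotype control library the intervals of both γδ groups lie below those of the other 3 lineages; in the anti-Gr-1 library those of γδ17-like and Treg-like cells overlap. DETC-like and γδ17-like intervals overlap each other in both libraries, as do those of Treg-like and Hlf Bmp2 cells. Of the cells that could not be placed, 4.13% (3.07 to 5.42) and 4.51% (2.43 to 7.60) were dividing, as low as the γδ groups. Cells with mast cell or phagocyte markers had 7.41% and 2.63%, and those of more than 1 lineage 11.7% and 12.7%.

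A threshold in raw UMIs is passed more easily by a deep cell, and the libraries differ in depth, so each cell was also thinned to 3000 UMIs, with 2053 and 172 shallower lymphoid cells left out, 61 and 3 of them dividing. At 2 or more Mki67 and Top2a UMIs after thinning, 4.59% and 4.69% of DETC-like, 5.33% and 4.78% of γδ17-like, 10.7% and 8.54% of Treg-like, 13.1% and 11.4% of αβ T-like and 8.41% and 8.92% of Hlf Bmp2 cells passed. Lineages here were those called with all UMIs. The values of both γδ groups again lay below those of the other 3 lineages in each library. In the anti-Gr-1 library the intervals of DETC-like (3.68 to 5.88) and γδ17-like cells (3.59 to 6.22) overlapped that of Treg-like cells (5.36 to 12.8). With lineage also called on thinned UMIs, anti-Gr-1 DETC-like and γδ17-like cells had 4.93% and 4.55%, against 6.73% of Treg-like and 7.57% of Hlf Bmp2 cells. The γδ intervals reached 6.14 and 6.06, past the lower ends for Treg-like (3.73) and Hlf Bmp2 (5.77) but not αβ T-like cells (7.21). In the isotype control library they reached 5.64 and 5.71, below those of the other 3 lineages. Thinned at 2 or more UMIs, mast cell barcodes gave 1.55% and 2.80%. They were chosen anew on thinned UMIs, as 194 and 214 barcodes, so they are not the same set as above.

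**Figure D2:**
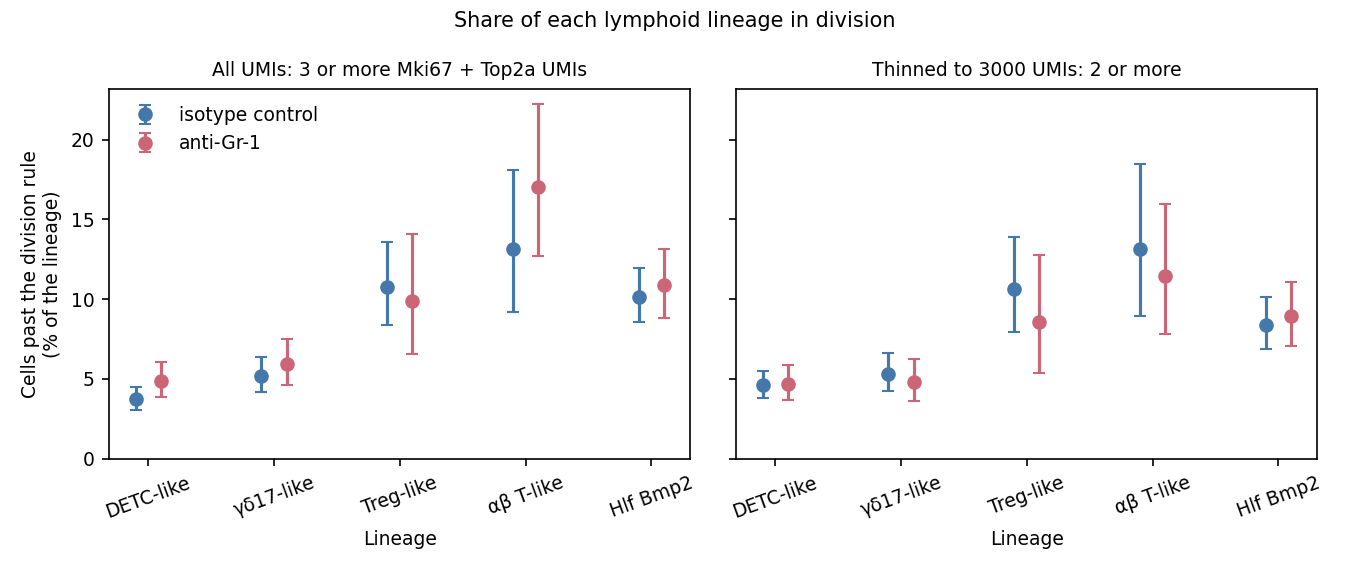
Cells past the division threshold as % of each lineage (points, with 95% exact binomial intervals), with all UMIs (left) and after thinning to 3000 UMIs per cell (right), in the isotype control (blue) and anti-Gr-1 (red) libraries. DETC-like and γδ17-like cells lie at 3.72% to 5.93% on the left, and the other lineages at 9.85% to 17.1%.

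Dividing cells made up 6.35% (5.84 to 6.88) of all isotype control lymphoid cells. They made up 7.57% (6.83 to 8.36) of those from anti-Gr-1 mice, which is 1.19 times (1.04 to 1.36) that share. After thinning, at 1 or more Mki67 and Top2a UMIs, the shares were 16.6% and 15.3% and the ratio was 0.922 (0.838 to 1.01). Here the lymphoid conditions were applied anew to thinned UMIs, with 1 or more Cd3 and Il7r UMIs, over 6750 and 4510 cells. Thinning thus also changed these thresholds and left out shallow cells, and which of these turned the ratio below 1 was not tested. No difference between the pools in the rate of division can be read from these libraries. Within γδ cells the ratio of dividing shares was 1.26 (1.01 to 1.57) with all UMIs and 0.971 (0.767 to 1.23) after thinning at 2 or more UMIs.

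Among the named lineages the share of the dividing cells differed most for αβ T-like cells, at 2.15 times (1.33 to 3.50) the isotype control value with anti-Gr-1. Their share of all lymphoid cells was 1.98 times (1.65 to 2.37) as high, and the share of αβ T-like cells in division had a ratio of 1.30 (0.803 to 2.11) with all UMIs and 0.869 (0.499 to 1.52) after thinning. Treg-like cells stood the other way, at 0.645 times (0.392 to 1.03) of the dividing and 0.841 times (0.725 to 0.975) of all lymphoid cells. Dividing cells with mast cell or phagocyte markers were at 0.168 times (0.0326 to 0.542), and those that could not be placed at 0.415 times (0.206 to 0.776), in the anti-Gr-1 library.

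Genes of the cell cycle set the dividing cells apart in both libraries, as the selection on Mki67 and Top2a fixes, and their values are given as a description. Levels are CPM of the UMIs summed over cells, and log2 ratios were taken after adding 5 CPM, which understates the ratio of low genes. Of 10962 genes with at least 20 UMIs in the dividing cells of both libraries together, 423 (3.86%) were at least 2-fold higher in dividing than in other lymphoid cells of the isotype control, and 458 (4.18%) for anti-Gr-1. In both libraries alike 397 (3.62%) were at least 2-fold higher and 56 (0.511%) at least 2-fold lower. Of 155 cell cycle genes, 127 were at least 2-fold higher in both, with a median log2 ratio of 2.25 and 2.30, against -0.04 and -0.05 over all genes tested.

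Genes that load and start the replicative helicase were higher in 14 of 15 cases, with medians of 2.0 and 1.96. Mcm5, a helicase subunit, stood at 110 and 91.7 CPM in dividing and 13.3 and 11.4 CPM in other lymphoid cells. Geminin (Gmnn), which keeps origins from being licensed again, stood at 87.6 and 108 against 12.5 and 10.8 CPM. Orc1, of the complex that marks origins, was the lowest of the list, at log2 ratios of 0.46 and 0.71. Among genes of DNA synthesis 22 of 25 passed. Rrm2, the regulated subunit of ribonucleotide reductase, stood at 127 and 138 against 3.87 and 2.77 CPM. Pcna, the sliding clamp of the polymerases, was high in the other lymphoid cells too, at 117 and 98.2 CPM against 371 and 342 CPM in dividing cells. In the list of DNA repair and checkpoint genes 11 of 14 passed, led by Clspn, a mediator of the replication checkpoint, at log2 ratios of 3.39 and 3.64.

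The genes of mitosis had the larger ratios. All 18 mitotic kinases and cyclins passed, with medians of 3.08 and 2.93. Cdk1, the kinase that drives entry into mitosis, stood at 118 and 144 CPM against 2.18 and 1.97, and its partner Ccnb2 at 145 and 167 against 1.89 and 2.03. Ccnb1, the other B-type cyclin of this kinase, stood at 53.6 and 48.8 against 1.25 and 0.667 CPM. Of the spindle, condensin and cytokinesis genes 35 of 36 passed. Nusap1, a microtubule binding protein of the spindle, stood at 335 and 348 against 2.55 and 1.78 CPM, and Cenpf, a protein of the kinetochore, at 361 and 288 against 3.06 and 3.34 CPM. Cenpa, the histone variant of centromeres, was the exception, at log2 ratios of 0.64 and 0.81. Ube2c, the ubiquitin-conjugating enzyme of the complex that ends mitosis, had 5.29 and 5.51.

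The list of histone and chromatin genes, which also holds Stmn1 and the tubulin genes Tubb5, Tuba1b and Tubb4b, passed in 13 of 13 cases. Hist1h1b stood at 711 and 1075 CPM against 6.81 and 7.15 CPM. H2afz, a histone variant that is also made outside S phase, stood at 1440 and 1772 against 422 and 420 CPM. The drivers of entry into S phase were mixed, with 8 of 16 past the fold. E2f8, a repressor made in S phase, had log2 ratios of 2.57 and 2.55 and cyclin E2 (Ccne2) 2.42 and 2.16, whereas cyclin D2 (Ccnd2), which acts in G1, was lower in dividing cells, at 512 and 435 CPM against 997 and 835. Of 11 CDK inhibitors and quiescence genes 1 passed: Cdkn2c, an inhibitor of Cdk4 and Cdk6, at 47.9 and 53.1 CPM against 11.4 and 14.1. Btg1, an antiproliferative gene, stood at 1343 and 1350 CPM against 2382 and 2309, and Cdkn1b, which encodes the inhibitor p27, at 134 and 111 against 160 and 147.

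**Figure D3:**
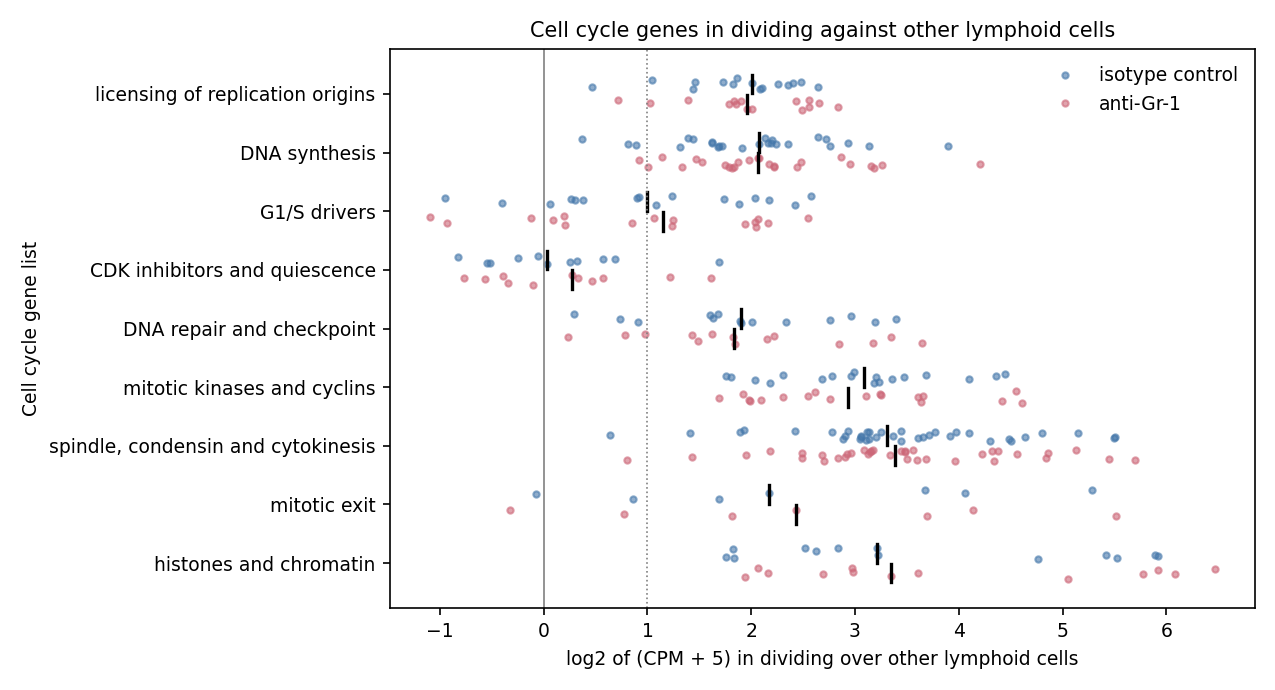
Log2 ratio of (CPM + 5) in dividing over other lymphoid cells (horizontal axis) for each gene of 9 cell cycle lists, in the isotype control (blue) and anti-Gr-1 (red) libraries; black bars are medians and the dotted line marks 2-fold. Medians lie between 1.83 and 3.39 in 7 lists, near 1 for drivers of S phase entry and near 0 for CDK inhibitors and quiescence genes.

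Since the genes of S phase and those of mitosis moved together as groups, the promoters of an always-named gene of each group and of Top2a, chosen after the sequences were read, were taken from RefSeq on GRCm38.p6. Each covers 250 bases before to 50 after the transcription start, read 5′ to 3′ on the strand of the gene. Capitals mark exact matches on either strand to TTTGAA, the core of the CHR element, to CCAAT, and to TTTCGCGC or TTTGGCGC, which are E2F-type motifs. The first 2 motifs are known from promoters of mitotic genes and the last from promoters of S phase genes.
Mcm5: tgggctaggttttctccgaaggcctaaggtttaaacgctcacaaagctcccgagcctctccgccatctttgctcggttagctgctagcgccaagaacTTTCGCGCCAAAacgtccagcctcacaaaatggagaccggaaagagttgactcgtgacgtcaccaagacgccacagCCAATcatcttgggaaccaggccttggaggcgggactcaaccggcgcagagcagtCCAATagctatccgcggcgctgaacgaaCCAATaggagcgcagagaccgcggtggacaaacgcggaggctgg
Cdk1: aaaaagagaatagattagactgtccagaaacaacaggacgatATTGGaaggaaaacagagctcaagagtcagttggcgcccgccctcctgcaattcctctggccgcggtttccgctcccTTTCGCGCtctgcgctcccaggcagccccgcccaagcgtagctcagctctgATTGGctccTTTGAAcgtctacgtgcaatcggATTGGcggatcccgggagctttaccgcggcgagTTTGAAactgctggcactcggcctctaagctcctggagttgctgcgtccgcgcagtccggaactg
Top2a: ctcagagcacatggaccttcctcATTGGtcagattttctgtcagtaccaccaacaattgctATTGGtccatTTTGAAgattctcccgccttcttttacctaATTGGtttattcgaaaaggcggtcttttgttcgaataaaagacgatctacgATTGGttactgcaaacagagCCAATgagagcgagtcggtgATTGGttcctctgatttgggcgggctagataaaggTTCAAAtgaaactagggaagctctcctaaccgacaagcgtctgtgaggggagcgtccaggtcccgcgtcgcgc
The Mcm5 promoter (chr8:75109259-75109558, plus strand) holds 0 CHR cores, 3 CCAAT boxes and 2 overlapping E2F-type matches, which share 4 bases. The Cdk1 promoter (chr10:69352863-69353162, minus strand) holds 2 CHR cores, 3 CCAAT boxes and 1 E2F-type match. The Top2a promoter (chr11:99024140-99024439, minus strand) holds 2 CHR cores, 6 CCAAT boxes and 0 E2F-type matches.

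The table of promoters held 34 of 40 genes of the licensing and DNA synthesis lists and 51 of 61 of the 3 mitotic lists. TTTGAA was in 34 of the mitotic promoters (66.7%), in 4 of the S phase promoters (11.8%) and in 17.9% of all 32851 promoters of this length. CCAAT was in 70.6%, 58.8% and 37.4%, and 2 or more CCAAT boxes in 47.1%, 35.3% and 11.7%. Either E2F-type motif was in 5.88%, 23.5% and 0.813%. These are counts of letters, and they do not show that a factor bound there.

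UMIs of mitosis outnumbered those of S phase in the dividing cells. The licensing and DNA synthesis lists summed to 3317 and 3383 CPM in dividing cells and to 723 and 644 CPM in the other lymphoid cells, while the 3 mitotic lists summed to 7841 and 7639 CPM and to 863 and 771 CPM. The S phase share of both was 29.7% (29.4 to 30.1) and 30.7% (30.3 to 31.1) in dividing cells against 45.6% and 45.5% in the others. Single cells with more S phase than mitotic UMIs numbered 177 (31.9%) and 116 (32.7%). Selection on Mki67 and Top2a, whose transcripts accumulate toward mitosis, bears on these shares, and no length of a phase can be read from them.

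Among lineages the S phase share of UMIs was highest in dividing Treg-like cells, at 33.8% and 35.9%. Counted by cells the order differed: 27.0% (16.6 to 39.7) and 34.6% of dividing Treg-like cells had more S phase than mitotic UMIs, against 39.5% (31.0 to 48.5) and 30.8% of Hlf Bmp2 cells. The UMI share was lowest in DETC-like cells of the isotype control library, at 24.3%, where the anti-Gr-1 library gave 28.9%. The γδ17-like cells had 30.4% and 30.9% and the Hlf Bmp2 cells 30.8% and 29.3%. In αβ T-like cells the libraries lay apart, at 26.0% and 33.1%, over 32 and 44 cells.

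**Figure D4:**
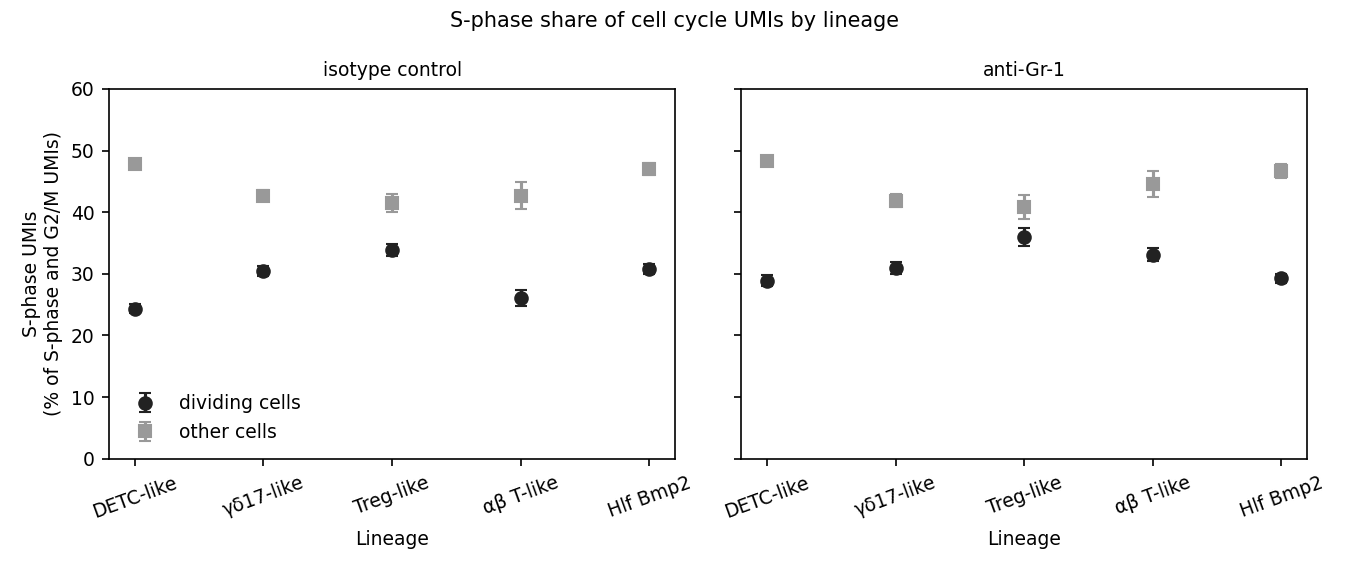
UMIs of the S phase lists as % of S phase and mitotic UMIs (vertical axis) in dividing (black circles) and other (grey squares) cells of each lineage, with 95% exact binomial intervals over UMIs, in the isotype control (left) and anti-Gr-1 (right) libraries. In both libraries dividing cells lie below the others in each of the 5 lineages, and Treg-like cells have the highest dividing value.

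Mitotic genes had higher CPM in the dividing than in the other cells of each lineage. The median log2 ratio of the mitotic kinases and cyclins lay between 3.01 and 3.73 over 5 lineages and both libraries, and that of the spindle list between 3.25 and 3.69. The median of the 7 genes of mitotic exit ranged more widely, from 1.55 in Treg-like cells to 2.97 in DETC-like cells. Cdk1 stood at 109 and 129 CPM in dividing DETC-like, 141 and 148 in γδ17-like, 141 and 161 in Treg-like, 156 and 178 in αβ T-like and 120 and 133 in Hlf Bmp2 cells, and at no more than 2.50 CPM in the other cells of any of these lineages. A gene list of glycolysis and biosynthesis had positive medians in all 5 lineages and both libraries, between 0.16 and 0.61.

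Dividing DETC-like cells carried the transcripts of their lineage at slightly lower CPM. Trdv4, the variable segment of their δ chain, was found in 93.6% and 86.8% of them, at 1204 and 1244 CPM against 1401 and 1349 in DETC-like cells not in division. Since the lineage call asks for a number of UMIs and dividing cells were deeper, a lower CPM can pass in them, and the part of this in such differences was not tested. Gzmc, a granzyme of these cells, was found in 47.7% and 57.9%, at 549 and 684 CPM against 620 and 847. In γδ17-like dividing cells Gzmc was found in 5.88% and 6.06%, at median depths of 11079 and 11702 UMIs against 8654 and 10823.5 for the DETC-like ones. Gzmc is among the markers that split the γδ cells, so this contrast was set in part by the call. Prf1, which encodes the pore protein perforin, stood at 263 and 193 against 443 and 416 CPM. Mthfd2, a mitochondrial enzyme of one-carbon metabolism, went the other way, at 68.1 and 58.6 against 28.4 and 24.6 CPM, as did the glycolytic enzyme Gapdh, at 633 and 746 against 337 and 425 CPM.

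Dividing γδ17-like cells differed between the libraries in their cytokine transcripts. Il17f, one of the cytokines that give the lineage its name, stood at 1031 CPM in dividing and 383 CPM in other γδ17-like cells of the isotype control library, a ratio of 2.69 (2.50 to 2.89), and was found in 52.9% and 23.7% of them. Anti-Gr-1 cells gave 359 and 325 CPM, a ratio of 1.10 (0.975 to 1.25), in 22.7% and 19.7% of cells. Dividing DETC-like cells, as a measure of background, had Il17f in 6.42% and 2.63%. Median depths were 11079 and 11702 UMIs in dividing γδ17-like cells against 5105 and 6737 in the others. The part of depth in the percentages was not tested. Il17a stood at 756 against 527 CPM in isotype control cells, a ratio of 1.43 (1.32 to 1.55). Its anti-Gr-1 levels were 506 against 539 CPM, a ratio of 0.94 (0.847 to 1.04). Both ratios thus lay above 1 in the isotype control pool, and both intervals included 1 in the anti-Gr-1 pool. These intervals are over UMIs and not over cells, so they are narrower than the spread between cells may allow. The difference between the pools was not tested.

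Several genes of γδ17 identity had lower CPM in the dividing γδ17-like cells of both libraries. Of the 14 genes of their marker list, 10 and 14 had log2 ratios below 0, and 4 and 0 above 0. Il23r, Tcrg-V6, Cd163l1 and Il1r1 are part of the call, which the deeper dividing cells can pass at a lower CPM. The part of this in their values was not tested. Il23r, the receptor for interleukin-23, stood at 93.1 and 110 CPM against 162 and 161. Tcrg-V6, the Vγ6 segment of dermal γδ17 cells, stood at 16.5 and 35.5 against 47.2 and 65.3 CPM. Cd163l1, a scavenger receptor of the lineage, stood at 358 and 498 against 816 and 797 CPM, and Il1r1, the receptor for interleukin-1, at 64.1 and 69.9 against 133 and 151. Tpi1, a glycolytic enzyme, and Mthfd2 were higher, Tpi1 at 130 and 127 against 49.4 and 53.7 CPM and Mthfd2 at 73.4 and 69.9 against 26.5 and 19.2 CPM.

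Most regulatory T cell markers had lower CPM in dividing than in other Treg-like cells: of 10 genes, 10 and 9 had log2 ratios below 0, with medians of -0.48 and -0.69. Foxp3, the defining transcription factor, stood at 248 and 332 CPM against 621 and 533, where 1 UMI sufficed for the call and the dividing cells had 9771 and 13167.5 UMIs at the median against 4332.5 and 5479.5. Il10, a suppressive cytokine, stood at 85.1 and 40.1 against 245 and 228 CPM, and Tnfrsf4, the costimulatory receptor OX40, at 396 and 613 against 878 and 1172 CPM. Ctla4, an inhibitory receptor, stood at 952 and 776 against 1293 and 1346 CPM. Ccl4, a chemokine, was low in the dividing cells, at 18.6 and 24.1 against 296 and 258 CPM. The nucleolar protein gene Ncl was higher in them, at 1400 and 1086 against 734 and 669 CPM, and so was Nme1, a nucleotide kinase, at 313 and 316 against 136 and 164 CPM. Cd4 was found in 35 of 63 and 13 of 26 of the dividing Treg-like cells, and in 1.55% and 1.10% of the dividing Hlf Bmp2 cells at median depths of 9502 and 14086 UMIs.

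Dividing αβ T-like cells were few and mixed. Cd4 was found in 28.1% and 34.1% of them and Cd8a or Cd8b1 in 9.38% and 15.9%. Gzma, a granzyme of cytotoxic cells, stood at 564 and 400 CPM against 107 and 10.8, but it was found in 12.5% and 4.55% of the dividing cells, so that a handful of cells held it. Il13, a type 2 cytokine, was more widespread, in 37.5% and 31.8% of dividing against 11.4% and 13.1% of other αβ T-like cells, at 131 and 134 against 39.2 and 68.9 CPM. Il13 was found in 5.88% and 13.6% of dividing γδ17-like cells, but in more of the dividing Hlf Bmp2 cells than of the αβ T-like ones, as given below. Cells past the Trac threshold were called before the Hlf and Bmp2 step. Hlf, Bmp2 and Rora summed to 1401 and 816 CPM in dividing αβ T-like cells. They summed to 2580 and 1835 CPM in dividing Hlf Bmp2 and 976 and 967 CPM in dividing γδ17-like cells. The part of this in the Il13 values was not tested. Dividing αβ T-like cells had medians of 11519 and 13434 UMIs against 5458 and 7617 in the others. The part of depth in the percentages was not tested. S1pr1, the receptor that guides exit from tissue, stood at 43.8 and 41.8 against 125 and 91.0 CPM.

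Most dividing Hlf Bmp2 cells carried Gata3 and Il7r, and fewer of them than of DETC-like cells had a Cd3e UMI. Gata3, the transcription factor of type 2 lymphocytes, was found in 89.9% and 91.2% of them, Il7r in 97.7% and 98.9%, and Cd3e in 25.6% and 11%, against 98.2% and 97.4% for Cd3e in dividing DETC-like cells. Cd3g was found in 73.6% and 81.3% and Trdc in 24.8% and 25.3%. Il7r and the Cd3 genes are part of the selection, and Trdc is part of the γδ call. Cells past the Foxp3, γδ or Trac thresholds were called before the Hlf and Bmp2 step. These steps bear on the shares of Il7r, Cd3e, Cd3g and Trdc, which are given as a description. Il1rl1, the receptor for interleukin-33 that marks many group 2 innate lymphoid cells, was found in 9.30% and 8.79%, so they are named here by Hlf and Bmp2 and given no cell type.

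Il13 and Il5, 2 cytokines of type 2 responses, had higher CPM in dividing than in other Hlf Bmp2 cells, while the list of group 2 innate lymphoid genes that holds them was mixed: of 11 genes, 7 and 5 had log2 ratios above 0, with medians of 0.38 and -0.01. Il13 was found in 64.3% of dividing and 41.3% of other Hlf Bmp2 cells of the isotype control library, at 347 against 260 CPM, a ratio of 1.33 (1.20 to 1.48). Of anti-Gr-1 cells 81.3% and 42.6% had it, at 465 against 219 CPM, a ratio of 2.13 (1.93 to 2.34). Il5, which sustains eosinophils, stood at 148 against 93.0 CPM, a ratio of 1.59 (1.34 to 1.88), and at 109 against 27.7 CPM, a ratio of 3.94 (3.14 to 4.94). Areg, a growth factor of the epidermal growth factor family, stood at 1650 and 1406 against 1312 and 1123 CPM. Arg1, which breaks down arginine, stood at 63.8 and 45.3 against 33.5 and 19.1 CPM. Gata3 itself differed little, at 684 and 549 against 702 and 556 CPM. Trdv4 was found in 39.5% of dividing and 36.3% of other Hlf Bmp2 cells of the isotype control pool, and for anti-Gr-1 in 70.3% and 42.4%, at 71.1 against 85.3 and 108 against 82.4 CPM. In dividing αβ T-like cells it was found in 9.38% and 13.6%. Median depths were 9502 and 14086 UMIs in dividing Hlf Bmp2 cells against 6036.5 and 8002 in the others. The part of depth in the percentages was not tested.

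Over all lineages together, genes of cell function moved less than genes of the cycle, and the mix of lineages enters these values. Of all 10962 genes tested, 3984 had ratios above 1 in both libraries and 5129 had ratios below 1 in both. None of the 17 glycolysis and biosynthesis genes was 2-fold higher in both libraries, but 13 had ratios above 1 in both, with medians of log2 ratio of 0.67 and 0.56. Mthfd2 led, at 64.9 and 63.2 CPM against 30.2 and 26.9, then Pgk1, at 256 and 254 against 133 and 129. Hk2, a hexokinase, was lower by more than 2-fold, at 245 and 206 against 499 and 487 CPM. Of 15 cytokine receptors 12 were below a ratio of 1 in both libraries and 0 passed the fold, with medians of -0.30 and -0.31. Of 22 effector cytokines and cytotoxic genes 3 were at least 2-fold lower in both, among them Ccl3, at 27.3 and 8.20 against 135 and 86.1 CPM, and Ccl4, at 77.4 and 56.8 against 274 and 202. Immediate early and heat shock genes, which tissue digestion can induce, were below 1 in 10 of 12 cases, with medians of -0.62 and -0.43 and Fos at 1310 and 1274 against 2301 and 2276 CPM. Of 8 thymocyte and precursor genes none passed the fold, and Zbtb16, a factor of innate-like T cells, stood at 18.8 and 21.7 against 38.2 and 38.5 CPM.

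Between the libraries, few genes differed in the dividing cells. Of the same 10962 genes, 11 (0.1%) were at least 2-fold higher and 92 (0.839%) at least 2-fold lower in dividing cells with anti-Gr-1 than with the control antibody, and the median log2 ratio over all of them was -0.14. None of the 155 cell cycle genes passed 2-fold in either direction after adding 5 CPM, with a median of -0.05. With no CPM added, Ccnd1, a D-type cyclin, had a ratio of 0.439 (0.320 to 0.594), at 28.0 and 12.3 CPM, and Cdkn2a, a CDK inhibitor, 2.45 (1.34 to 4.65), at 3.02 and 7.38 CPM; both were chosen after their values were seen. All 13 genes of the histone and chromatin list, tubulin genes and Stmn1 included, were above 0, with a median of 0.24. Of all 10962 genes 3278 were above 0. A further 3 histone genes were among the 10 highest of the named genes. Hist1h1e, a linker histone, stood at 356 CPM (isotype control) and 619 CPM (anti-Gr-1), a ratio of 1.74 (1.64 to 1.84), and had a ratio of 1.84 in the other lymphoid cells.

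The genes lowest in the anti-Gr-1 library were largely those of phagocytes. Of 9 phagocyte markers 7 were at least 2-fold lower, with a median log2 ratio of -1.52 in dividing and -1.18 in other lymphoid cells. Pf4, a chemokine of platelets and macrophages, stood at 51.4 and 5.33 CPM, a ratio of 0.104 (0.0666 to 0.155), and 1 cell held 22.1% of its isotype control UMIs. Lyz2, the lysozyme of phagocytes, stood at 123 and 53.3 CPM, a ratio of 0.433 (0.374 to 0.50), and at 0.244 in the other lymphoid cells; it was found in 51.2% and 29.6% of dividing cells. Apoe, a lipid carrier, had a ratio of 0.273 (0.237 to 0.314), and Il1b, an inflammatory cytokine of phagocytes, 0.378 (0.299 to 0.474). Cd74 and the class II genes H2-Aa, H2-Ab1 and H2-Eb1 had ratios between 0.400 and 0.456, but the selection itself limits them. Cd209d, a lectin, completed the 10 lowest with Il17f.

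Il17f was the lymphoid gene among them, at 235 CPM over 84 isotype control cells with a UMI and 108 CPM over 37 anti-Gr-1 cells, which gives 0.457 (0.413 to 0.506). In the other lymphoid cells its ratio was 0.874 (0.834 to 0.915). Single cells held 8.74% and 21.7% of its UMIs in the dividing cells. With equal weight for each lineage, its log2 ratio was -0.57 in place of -1.09, and without barcodes of mast cell, phagocyte or several lineages' markers it was -1.45. Its direction was the same under each of the 8 alternatives.

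The highest genes included 4 of mast cells, Hdc, Cpa3, Mcpt4 and Tpsb2, which turned on few barcodes. Hdc, the enzyme that makes histamine, stood at 27.9 and 80.6 CPM, a ratio of 2.89 (2.40 to 3.50), and 1 cell held 34.1% of its anti-Gr-1 UMIs. Without barcodes of mast cell, phagocyte or several lineages' markers the log2 ratios of Hdc, Cpa3, Mcpt4 and Tpsb2 were -1.03, -0.31, -0.23 and -0.40, where they were 1.38, 0.94, 0.93 and 0.91 with them. Bcl2a1b and Bcl2a1d, survival genes of the Bcl2 family, had ratios of 2.11 (1.93 to 2.32) and 2.14 (1.87 to 2.45), and of 1.6 and 1.71 in the other lymphoid cells; they are near-identical copies whose reads may be split between them. Ms4a4b, a membrane protein of T cells, stood at 68.3 and 132 CPM, a ratio of 1.94 (1.70 to 2.20), against 0.944 (0.890 to 1.0) in the other lymphoid cells. With equal lineage weights its log2 ratio was 0.36 in place of 0.90.

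**Figure D5:**
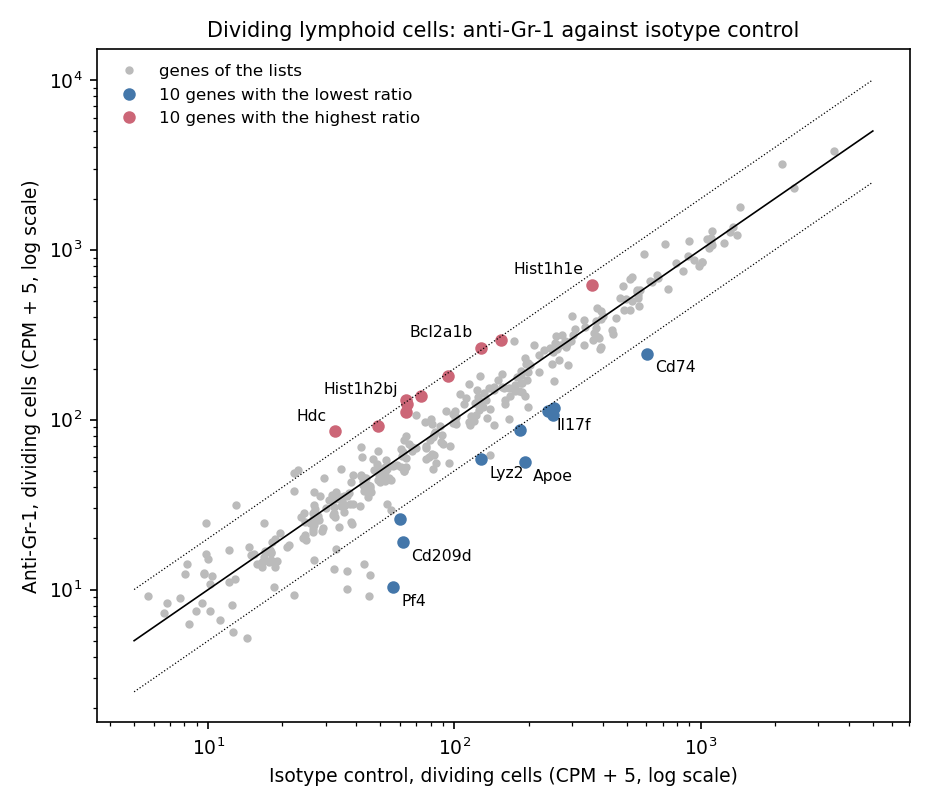
CPM + 5 of each gene in isotype control (horizontal, log scale) and anti-Gr-1 (vertical, log scale) dividing cells, with genes of the lists in grey, the 10 lowest ratios in blue and the 10 highest in red; the solid line marks equal levels and dotted lines 2-fold. Most listed genes lie between the dotted lines, and Pf4 lies lowest, at 51.4 and 5.33 CPM.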

How the data were processed

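Per the file headers, the deposited raw UMI counts per gene and barcode came from Cell Ranger 4.0.0. The submitters' processing notes name mm10, and the labels' protocols 10x Genomics 3′ chemistry. Each library is 1 pool of mice, so no test was made. Members, lists and lineages were chosen with earlier results of these data known, and lineage thresholds were set after the data were seen.

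Barcodes were selected as the report states, in Python 3.11.15 with numpy 2.4.6, scipy 1.17.1 and pandas 2.3.3; plots used matplotlib 3.10.9. A barcode was set aside as more than 1 lineage when 2 or more of these held: at least 5 UMIs of Trdc and Tcrg-C1, 1 of Foxp3 or 3 of Trac, 10 of mast cell markers, 10 of phagocyte markers, 2 of Cd79a, or 5 of Hlf and Bmp2 in a DETC-like cell. Others with 10 UMIs of mast cell or phagocyte markers were set aside as such. The rest were called in turn by Foxp3 (1 UMI), Trdc and Tcrg-C1 (3, and no fewer than Trac), Trac (2), Hlf and Bmp2 (2) and Ncr1 (1). Doublets were scored with scrublet in scanpy 1.11.5 at 0.8% per 1000 barcodes. UMIs were summed over cells and scaled to CPM; log2 ratios used a pseudocount of 5 CPM and genes with at least 20 UMIs. Shares have 95% Clopper-Pearson intervals and ratios exact conditional intervals. Scripts were tested on simulated data.

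Named genes were up to 4 of each list with the largest and 2 with the smallest ratio of dividing to other cells, alike in sign in both libraries. Between libraries they were the 10 highest and the 10 lowest ratios, taken over genes that reached 50 UMIs and 50 CPM in 1 library, without mitochondrial, ribosomal, haemoglobin, immunoglobulin, unnamed and sex-linked genes. A fixed set of lineage and cycle genes was always named. Prf1, Areg, Arg1, Nme1, Ncl, Il10, S1pr1, Cd3g and other genes named within a lineage were chosen after their values were seen. Gene positions are from GENCODE M21 on GRCm38, and promoters from RefSeq. Alternatives are given in the closing section. Antibody-derived tags were not used here.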

Additional observations from a re-analysis of the deposited data

Results flagged for a closer look

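In 4 listed genes the ratio of dividing to other lymphoid cells lay above 1 in one library and below 1 in the other, with intervals that did not include 1; the difference between the libraries was not tested. Cd8b1, a chain of the CD8 coreceptor, had a ratio of 0.662 (0.429 to 0.984) in the isotype control library, from 27 UMIs in 12 dividing cells. In the anti-Gr-1 library it was 2.46 (1.92 to 3.12), from 96 UMIs in 8 dividing cells, of which 1 cell held 29. Csf2, the cytokine GM-CSF, had 0.737 (0.593 to 0.908), from 98 UMIs in 40 cells, and 2.08 (1.78 to 2.44), from 212 UMIs in 39 cells. Within Hlf Bmp2 cells Csf2 stood at 28.3 CPM in dividing against 36.3 CPM in other cells of the isotype control and at 86.1 against 29.2 CPM in the anti-Gr-1 library. Ifit1, an interferon-induced gene, had 1.67 (1.21 to 2.26), from 53 UMIs in 6 cells of which 1 held 31, and 0.165 (0.00408 to 0.977), from 1 UMI. Ikzf2, a transcription factor of regulatory T cells, had 1.08 (1.03 to 1.13) and 0.918 (0.864 to 0.974). For Cd8b1 and Ifit1 the UMIs of few cells set the ratio.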

How the results depend on the processing

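No paired analysis was possible because each treatment had 1 library and no test was made. Each value was recomputed under each other setting listed beforehand and under 4 chosen after seeing the data (2 or more UMIs after thinning, lineage called on thinned UMIs, doublet removal within lineages, and leaving out barcodes of mast cell, phagocyte or several lineages' markers). Of 140 such values for the main results 100 stayed within their counting interval, or for counts of genes within 1.5 times, and 40 did not. Of those for single genes and lists 1428 stayed within it, 1051 did not and 3 that had been past 2-fold changed sign. The dividing share of 6.35% in the isotype control became 9.81% at 2 or more Mki67 and Top2a UMIs, 4.12% at 5 or more and 16.6% after thinning at 1 or more. The 7.57% of the anti-Gr-1 library became 12.0%, 5.12%, 15.3% and, thinned at 2 or more, 5.88%; their ratio of 1.19 became 0.922 and 0.925 after thinning at 1 and 2 or more. The γδ share of dividing cells, 35.0% in the isotype control, became 39.3% at 2 or more UMIs, 41.0% with Cd3 genes alone, 50.9% and 43.4% after thinning at 1 and 2 or more, and 41.0% without mast cell, phagocyte and several-lineage barcodes. The 40.3% of the anti-Gr-1 library became 48.7% and 45.7% after thinning. Thinned at 1 or more UMIs, DETC-like cells had 15.3% and 13.3%, γδ17-like 14.2% and 12.7% and Treg-like cells 20.9% and 23.2% in division. The αβ T-like cells had 27.2% and 26.0% and Hlf Bmp2 cells 20.9% and 18.7%. Mast cell barcodes chosen anew on thinned UMIs had 6.70% and 8.41%. At 2 or more, DETC-like cells had 4.59% and Hlf Bmp2 cells 8.41% in the isotype control and αβ T-like cells 11.4% in the anti-Gr-1 library. With lineage called on thinned UMIs, DETC-like cells had 4.72% in the isotype control, and γδ17-like 4.55%, αβ T-like 11.6% and Hlf Bmp2 cells 7.57% in the anti-Gr-1 library. Genes at least 2-fold higher and lower in anti-Gr-1 dividing cells numbered 11 and 92; at a pseudocount of 1 CPM 61 and 307, at 20 CPM 2 and 14, with equal lineage weights 4 and 37, and after thinning 158 were lower. In these 3 values, without mast cell, phagocyte and several-lineage barcodes the log2 ratio of Mcpt4 in dividing over other cells of the anti-Gr-1 library was 0.0103 (-1.55 with them), and that of Hdc between the libraries was -1.03, and -0.72 with equal lineage weights (1.38 otherwise). Cpa3, Mcpt4 and Tpsb2, under 2-fold between the libraries (0.94, 0.93 and 0.91), also fell below 0, to -0.31, -0.23 and -0.40 without those barcodes; with equal lineage weights Mcpt4 had -0.05 and Tpsb2 -0.16, and by the mean of per-cell CPM Cpa3 had -0.10 and Mcpt4 -0.06. Other values under 2-fold crossed 0 too. The cause of these changes was not tested, beyond the lower and higher UMI thresholds themselves. Counts of 2-fold higher cell cycle genes (127 and 131) stayed within 1.5 times under each alternative. Depth limits the smaller groups: a share over 32 or 44 αβ T-like cells has a wide interval.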
